A study of Homo sapiens with 12 samples.

Results

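The genes described are the 10 that encode the thioredoxin and peroxiredoxin system: TXN, TXNRD1, TXNRD2, SRXN1 and PRDX1 to PRDX6. They were taken by gene name from a table of 60671 named genes, each name matched 1 row, and all 10 were among the 16994 genes with enough counts to be tested. RNA was sequenced from HCT116, an established human colorectal carcinoma line of wild-type genotype, in 4 groups of 3 samples. Control cells stayed in full DMEM for 24 h or 48 h, and deprived cells were washed and given DMEM with 0 mM cystine for the same times, all with fetal bovine serum and antibiotics. The wash is described for the deprived cells only, so its effect and that of the missing cystine cannot be told apart. Whether the replicates were grown as separate cultures is not stated in the labels, and the p-values therefore cover only the spread among these 12 samples, part or all of which may be technical.

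Thioredoxin is a small protein that reduces disulfide bonds in other proteins with a pair of its own cysteines, and thioredoxin reductase recharges it with electrons from NADPH. Peroxiredoxins are abundant peroxidases that destroy hydrogen peroxide with a reactive cysteine, and most of them are returned to the reduced form by thioredoxin. When that cysteine is oxidised further, to a sulfinic acid, sulfiredoxin repairs it. The system works beside glutathione, and several of its genes, TXNRD1 and SRXN1 among them, are known targets of the transcription factor NRF2.

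Each sample held between 19146108 and 24179533 estimated counts, and none was left out. The 10 genes held 0.19% to 0.23% of the counts of named genes in control samples, 0.289% to 0.298% in deprived samples at 24 h and 0.38% to 0.392% in deprived samples at 48 h. This share is a sum over genes of unequal length and does not stand for each gene. At 48 h TXNRD1 had 7240 to 7848 estimated counts in control and 40013 to 40769 in deprived samples. PRDX1 had 12789 to 13425 in control and 11394 to 12186 in deprived samples at that time. Levels are given as CPM, counts scaled to a common library size with TMM factors. Of 8 markers of colon epithelium, 7 averaged 1 CPM or more, and the 8 summed to 3680 to 4400 CPM in control and 4730 to 5280 CPM in deprived samples. LGALS4 did not pass 0.319 CPM and VIL1 lay between 0.471 and 2 CPM. The leukocyte genes PTPRC and CD3E had 0 counts in all 12 samples, and the 5 leukocyte markers summed to at most 0.78 CPM in any sample. Of 4 fibroblast markers only COL1A1 passed 1 CPM in any sample, and the 4 summed to 31.6 to 48.8 CPM in control and 15.9 to 22.4 CPM in deprived samples. Of 3 endothelial markers only VWF did, and the 3 summed to at most 2 CPM in any sample. The part of these marker differences in the results was not tested. In bulk RNA, a change in transcript per cell and a change in which cells were harvested cannot be told apart.

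Without cystine, the transcripts of the reductase TXNRD1 and of sulfiredoxin rose several-fold at both times, while those of 4 of the 6 peroxiredoxins fell at 24 h and those of 3 at 48 h. At 24 h, 4 of the 10 genes rose (SRXN1, TXNRD1, PRDX5 and TXN) and 4 fell (PRDX2, PRDX1, PRDX3 and PRDX4). At 48 h, 5 rose (SRXN1, TXNRD1, TXN, PRDX5 and TXNRD2) and 3 fell (PRDX2, PRDX4 and PRDX3). A gene was called by edgeR's quasi-likelihood test at an adjusted p under 0.05, adjusted over all genes tested. By the same rule 55.6% of all genes were called at 24 h, 28.8% higher and 26.9% lower, and 68.3% at 48 h, 33.5% higher and 34.9% lower. The median log2 fold change of the 10 genes was -0.091 at 24 h and 0.24 at 48 h, and that of all genes was -0.0061 and -0.016. Since most genes of the series were called at each time, these counts say little by themselves, and the account turns on the sizes. By absolute log2 fold change, TXNRD1 exceeded 97% and SRXN1 98.7% of all genes tested at 24 h, and 95.5% and 96.1% at 48 h. PRDX2 exceeded 82.8% at 24 h and 80.7% at 48 h. PRDX1 exceeded 78.7% and PRDX3 60.5% at 24 h, and TXN 77.4% at 48 h. Called, but under the median size, were TXN (above 26.1%) at 24 h and TXNRD2 (36.3%) and PRDX3 (19.9%) at 48 h. So were PRDX4 (41% and 43.7%) and PRDX5 (38.4% and 45.4%) at both times.

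**Figure D1:**
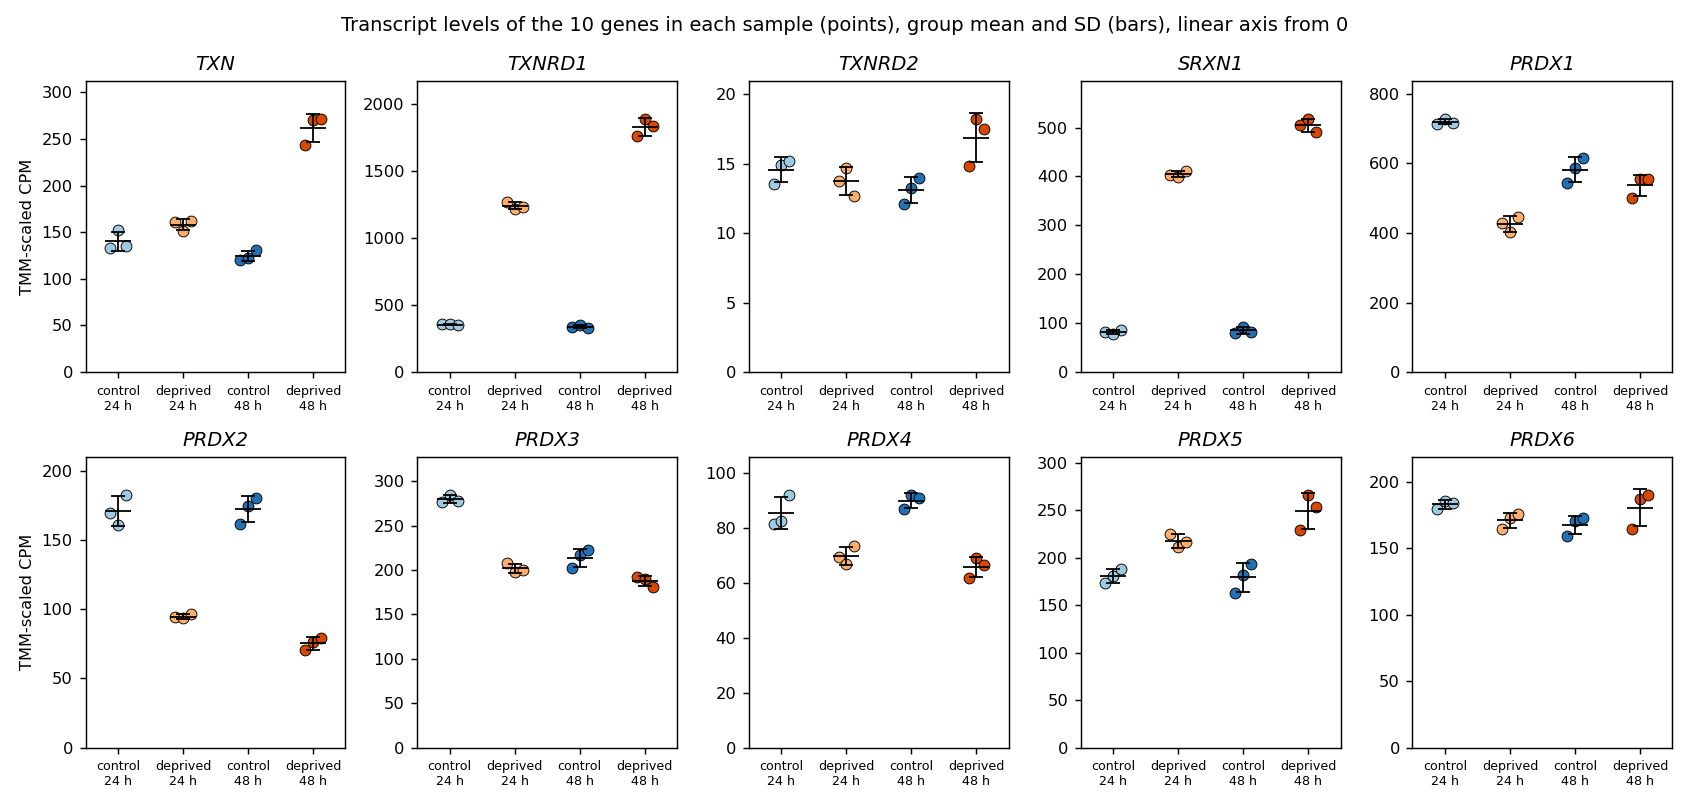
CPM of each gene (linear axes from 0, a separate scale per gene) in each of the 12 samples, with group mean and SD. TXNRD1 and SRXN1 separate control from deprived samples by the widest margin, PRDX2 separates them downward, and PRDX6 stays between 159 and 190.3 CPM.

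TXN, thioredoxin itself (ENSG00000136810, chromosome 9, 110243811 to 110256640, minus strand, GRCh38), had a small difference at 24 h and a clear rise at 48 h. At 24 h the control samples had 133, 152 and 136 CPM and the deprived samples 161, 151 and 162 CPM. The highest control sample lay just above the lowest deprived sample, so the groups overlapped. The log2 fold change at 24 h was 0.17 ± 0.061 (SE; adjusted p = 0.0211). Under upper-quartile scaling it was 0.10 (adjusted p = 0.149), with library totals alone 0.10 (adjusted p = 0.136), and it missed the threshold without control 24 h replicate 1 (adjusted p = 0.103), control 24 h replicate 3 (0.0816), deprived 24 h replicate 1 (0.0648) or deprived 24 h replicate 3 (0.0757), within a range of 0.00496 to 0.149 over 14 alternatives. At 48 h the control samples had 120.1, 122 and 131 CPM and the deprived samples 244, 270.1 and 271 CPM. Every deprived sample at 48 h lay far above every other sample of the series for this gene. The rise at 48 h was 2.10-fold (1.07 ± 0.061 on the log2 scale, adjusted p = 9.53e-12).

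TXNRD1, the cytosolic thioredoxin reductase, is a selenoprotein whose activity rests on a selenocysteine near its end (ENSG00000198431, chromosome 12, 104215779 to 104350305, plus strand). The control samples had 356, 360.1 and 348 CPM at 24 h and 334, 352 and 332 CPM at 48 h. The deprived samples had 1271, 1221 and 1236 CPM at 24 h and 1761, 1892 and 1839.7 CPM at 48 h. The control samples of both times lay in one narrow band, and the deprived samples formed a distinct level at each time, with no overlap. TXNRD1 rose by 1.81 ± 0.046 on the log2 scale at 24 h (adjusted p = 5.03e-16) and by 2.43 ± 0.047, or 5.39-fold, at 48 h (adjusted p = 2.98e-18).

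TXNRD2, the mitochondrial reductase (ENSG00000184470, chromosome 22, 19875517 to 19941992, minus strand), had the lowest counts of the 10 genes. The control samples had 13.6, 14.9 and 15.2 CPM at 24 h and 12.1, 13.3 and 13.9 CPM at 48 h. The deprived samples had 13.7, 14.7 and 12.7 CPM at 24 h, within reach of the controls, and 14.9, 18.2 and 17.5 CPM at 48 h, where the groups did not overlap. The change at 24 h was -0.085 ± 0.099 on the log2 scale with a 95% interval of -0.29 to 0.12 (adjusted p = 0.487). At 48 h TXNRD2 rose 1.29-fold (0.36 ± 0.097, adjusted p = 0.00263). The intervals of the log2 fold change of TXNRD2 and TXNRD1 at 48 h, 0.16 to 0.57 and 2.33 to 2.53, lay far apart.

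SRXN1, sulfiredoxin, the ATP-dependent enzyme that repairs over-oxidised peroxiredoxins (ENSG00000271303, chromosome 20, 646615 to 653370, minus strand), showed the largest fold change of the 10 genes at both times. The control samples had 82.3, 78.3 and 85.4 CPM at 24 h and 79.5, 93.0 and 82.4 CPM at 48 h. The deprived samples had 404, 399.6 and 411 CPM at 24 h and 505, 518 and 490.3 CPM at 48 h. No deprived sample came near a control sample. SRXN1 rose 4.94-fold at 24 h (2.30 ± 0.058, adjusted p = 4.21e-16) and 5.94-fold at 48 h (2.57 ± 0.058, adjusted p = 1.4e-17). GENCODE release 29 places another gene, AL121758.1, on the same strand with 2292 of the 2698 exonic bases of SRXN1, and that gene had at most 16.9 estimated counts in any sample.

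Promoter sequences from RefSeq (GRCh38.p14), 250 bases before to 50 after a start, were found for 8 of the 10 genes, in 12 windows. PRDX1 and PRDX6 had no entry. They were searched on both strands for TGACNNNGC, the core of the antioxidant response element that NRF2 binds, for TGANTCA, the AP-1 element, and for TGATGNAA, the C/EBP-ATF element. The first and the second can overlap. Shown are stretches of these windows for the 3 genes with the largest rises at 48 h, 5′ to 3′ on the strand of the gene, with matches in capitals. The first TXNRD1 stretch ends at that gene's start in GENCODE, and the second lies within that gene's span there. Those of SRXN1 and TXN lie before the gene's start in GENCODE.
TXNRD1, first window, chr12:104215649-104215779: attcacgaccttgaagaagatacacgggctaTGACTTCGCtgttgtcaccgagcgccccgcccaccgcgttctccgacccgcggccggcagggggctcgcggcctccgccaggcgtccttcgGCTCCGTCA
TXNRD1, second window, chr12:104286920-104286949: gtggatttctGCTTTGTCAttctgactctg
SRXN1, chr20:653371-653450: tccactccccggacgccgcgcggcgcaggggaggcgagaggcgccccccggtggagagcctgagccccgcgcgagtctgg
TXN, chr9:110256641-110256757: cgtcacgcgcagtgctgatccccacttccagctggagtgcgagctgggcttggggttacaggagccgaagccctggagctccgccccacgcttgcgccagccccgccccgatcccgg

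TXNRD1 held TGACNNNGC in both of its windows, as TGACTTCGC at 104215680 to 104215688 and on the opposite strand, read here as GCTCCGTCA and GCTTTGTCA, at 104215771 to 104215779 and 104286930 to 104286938 of chromosome 12. Of all 35116 windows in the table, 13.3% held this motif, 7.71% held TGANTCA and 3.62% held TGATGNAA. Counted by gene, 16.1% of those with windows held TGACNNNGC in any of them. Matches in TXNRD1 alone thus do not set the 8 genes apart. No other match to any of the 3 motifs was found among the windows of the 8 genes, SRXN1 and TXN included. That says only that these letters are not in these windows. The GENCODE starts of SRXN1 (653370) and TXN (110256640) lie upstream of the RefSeq starts used, so these windows, which end at 653450 and 110256757, reach less far before them.

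**Figure D2:**
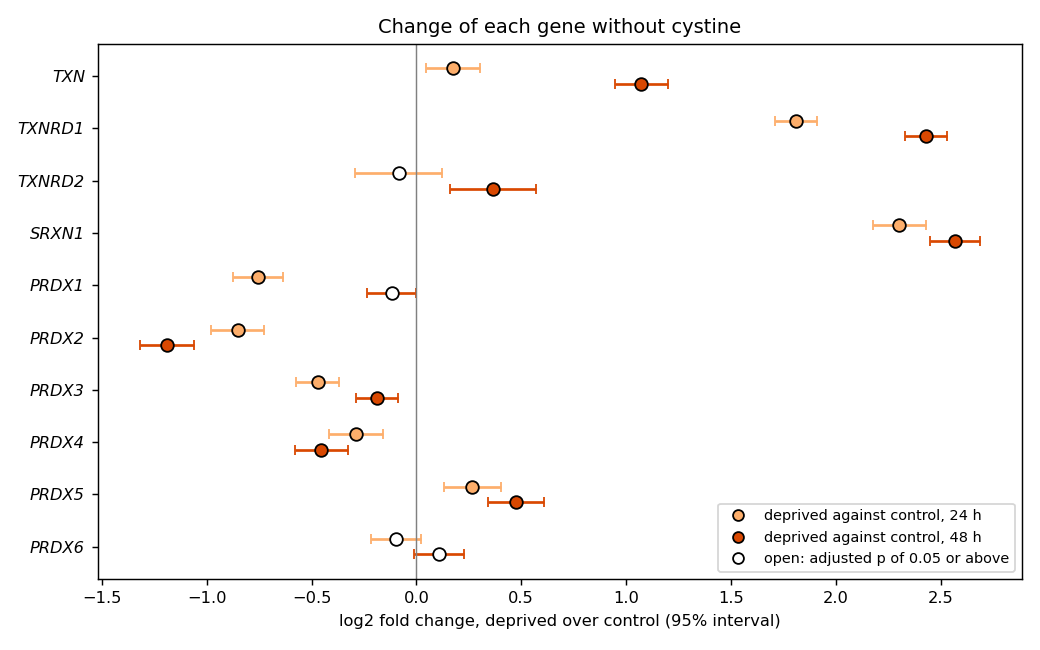
Log2 fold change of each gene, deprived over control, at 24 h (light) and 48 h (dark), with 95% intervals from edgeR's fit and open points where the adjusted p was 0.05 or above. SRXN1 and TXNRD1 stand apart on the right, TXN moves from 0.17 to 1.07, and PRDX1 moves from -0.76 to -0.12.

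PRDX1 to PRDX4, the typical peroxiredoxins that SRXN1 acts on, were not called higher at either time. PRDX1, the most abundant cytosolic peroxiredoxin here (ENSG00000117450, chromosome 1, 45511036 to 45523047, minus strand), had 714, 728 and 718 CPM in control and 429.5, 403 and 447 CPM in deprived samples at 24 h. All deprived samples lay well below all controls, a fall of 0.76 ± 0.056 on the log2 scale (adjusted p = 1.54e-09). At 48 h the control samples had 545, 587 and 616 CPM and the deprived samples 502, 554 and 555 CPM, and the groups overlapped. The difference at 48 h was -0.12 ± 0.056 with a 95% interval of -0.23 to -0.00082 (adjusted p = 0.069). It passed the threshold under upper-quartile scaling (-0.18, adjusted p = 0.00593), with library totals alone (-0.14, adjusted p = 0.0116), with the stricter filter of 5 CPM (-0.15, adjusted p = 0.0114) and without control 48 h replicate 1 (-0.16, adjusted p = 0.0178). Over 14 alternatives the adjusted p ranged from 0.00593 to 0.301. Its exons share 379 of 1522 bases with MMACHC on the other strand, which reached 341 estimated counts, and with the strandedness not given in the sources used here, reads from the shared bases cannot be told apart.

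PRDX2, the other main cytosolic peroxiredoxin (ENSG00000167815, chromosome 19, 12796820 to 12801859, minus strand), had the lowest fold change of the 10 genes at both times. The control samples had 169, 161 and 183 CPM at 24 h and 162, 175 and 180.0 CPM at 48 h. The deprived samples had 94.0, 93.7 and 96.4 CPM at 24 h and 70.3, 76.7 and 79.3 CPM at 48 h. The deprived samples lay below every control sample at both times, and those at 48 h lay below those at 24 h. PRDX2 fell by 0.85 ± 0.060 on the log2 scale at 24 h (adjusted p = 6.99e-10) and by 1.19 ± 0.061 at 48 h (adjusted p = 1.96e-12).

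PRDX3, the mitochondrial peroxiredoxin (ENSG00000165672, chromosome 10, 119167703 to 119178833, minus strand), had 277, 285 and 278 CPM in control and 208, 198 and 199.9 CPM in deprived samples at 24 h. At 48 h it had 203, 217 and 222 CPM in control and 192, 189.5 and 181 CPM in deprived samples. The groups were separate at both times, by a wide gap at 24 h and a narrow one at 48 h. PRDX3 fell by 0.47 ± 0.048 at 24 h (adjusted p = 1.27e-07) and by 0.19 ± 0.049 at 48 h (adjusted p = 0.00203) on the log2 scale.

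PRDX4, the peroxiredoxin of the endoplasmic reticulum, where it also passes oxidising equivalents to protein folding (ENSG00000123131, chromosome X, 23664262 to 23686399, plus strand), had 81.6, 82.8 and 92.2 CPM in control and 69.3, 67.1 and 73.5 CPM in deprived samples at 24 h. At 48 h it had 87.0, 92.0 and 91.1 CPM in control and 61.7, 69.0 and 66.5 CPM in deprived samples. Deprived samples were the lower ones throughout, with no overlap at either time. PRDX4 fell by 0.29 ± 0.061 at 24 h (adjusted p = 0.000524) and by 0.45 ± 0.061 at 48 h (adjusted p = 2.06e-06) on the log2 scale.

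PRDX5, an atypical peroxiredoxin found in mitochondria, peroxisomes and cytosol that forms its disulfide within a single chain (ENSG00000126432, chromosome 11, 64318088 to 64321811, plus strand), was the only peroxiredoxin gene called higher at either time. The control samples had 173, 181 and 188 CPM at 24 h and 163, 182 and 193 CPM at 48 h. The deprived samples had 225, 211 and 217 CPM at 24 h and 229, 266 and 253 CPM at 48 h. Every deprived sample lay above every control sample of its time. PRDX5 rose 1.20-fold at 24 h (0.27 ± 0.065, adjusted p = 0.00171) and 1.39-fold at 48 h (0.48 ± 0.064, adjusted p = 2.26e-06).

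PRDX6, which has a single catalytic cysteine and is reduced with the help of glutathione rather than thioredoxin (ENSG00000117592, chromosome 1, 173477266 to 173488807, plus strand), was called at neither time. It had 179, 185 and 184 CPM in control and 165, 172 and 176 CPM in deprived samples at 24 h, 159, 171 and 172 CPM in control and 165, 187 and 190.3 CPM in deprived samples at 48 h. The deprived samples all lay below the controls at 24 h, and the groups overlapped at 48 h. The difference was -0.10 ± 0.057 at 24 h (interval -0.22 to 0.022, adjusted p = 0.157) and 0.11 ± 0.056 at 48 h (interval -0.0093 to 0.23, adjusted p = 0.0947) on the log2 scale. At 24 h it was called lower under upper-quartile scaling (-0.17, adjusted p = 0.0108) and with library totals alone (-0.17, adjusted p = 0.00489). It was also called lower at 24 h with the 5 CPM filter (-0.12, adjusted p = 0.0466) and when control and deprived samples of 24 h were fitted alone (-0.11, adjusted p = 0.0417), and its adjusted p ranged from 0.00489 to 0.399 over 14 alternatives. At 48 h it was called higher without deprived 48 h replicate 1 (0.18, adjusted p = 0.00556), with a range of 0.00556 to 0.399.

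Control and deprived samples did not overlap for 8 of the 10 genes at 24 h (3 higher and 5 lower), as for 62.8% of all genes tested (32.1% higher and 30.7% lower). At 48 h they did not overlap for 8 (5 higher and 3 lower), as for 70% of all genes (34.2% higher and 35.8% lower). The exceptions were TXN and TXNRD2 at 24 h and PRDX1 and PRDX6 at 48 h. Near-identical copies could take reads from some of these genes. The table lists 17 genes named as pseudogene copies of TXN or of peroxiredoxins, and none had more than 11 estimated counts in any sample.

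Levels were compared between genes per kilobase of the deposited gene length, as CPM per kilobase. The table gives a single length per gene, although TXNRD1 has 24 annotated transcripts. In control cells at 24 h PRDX1 stood first at 583 ± 5.70 (SD, n = 3), followed by PRDX5 at 210.4, TXN at 190.4, PRDX2 at 185 and PRDX3 at 180.2. Those 4 formed a chain in which each gene's sample range overlapped the next one's. PRDX6 at 108 lay below them, then TXNRD1 at 91.9 and PRDX4 at 89.4, whose ranges overlapped. SRXN1 at 32.4 and TXNRD2 at 7.51 came last.

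Control cells at 48 h kept a similar order, with PRDX1 at 472, PRDX5 at 209, PRDX2 at 186, TXN at 169, PRDX3 at 138, PRDX6 at 99.1, PRDX4 at 94.1, TXNRD1 at 87.9, SRXN1 at 33.6 and TXNRD2 at 6.76 CPM per kilobase. The sample ranges of PRDX5 and PRDX2, of PRDX2 and TXN, of PRDX6 and PRDX4, and of PRDX4 and TXNRD1 overlapped there.

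Deprivation rearranged that order. At 24 h TXNRD1 (316 to 329) had moved up to the range of PRDX1 (326 to 362), ahead of PRDX5 at 253 and TXN at 215, and SRXN1 at 160.2 had passed PRDX3 (127 to 134), PRDX2 (101 to 104) and PRDX6 (97.5 to 104). The ranges of PRDX2 and PRDX6 overlapped. At 48 h TXNRD1 stood first at 456 to 490.0, above PRDX1 at 406 to 449.7, followed by TXN at 355, PRDX5 at 290.2 and SRXN1 at 199.5. PRDX3 came next at 121, PRDX6 at 107, PRDX2 at 81.6, PRDX4 at 68.8 and TXNRD2 at 8.70. No neighbours in the order at 48 h had overlapping sample ranges.

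The ratio of reductase to thioredoxin transcript, TXNRD1 over TXN per kilobase, ranged over 0.452 to 0.510 in control and 1.46 to 1.54 in deprived samples at 24 h, and over 0.484 to 0.548 and 1.29 to 1.38 at 48 h. The ratio of TXNRD1 to TXNRD2, cytosolic over mitochondrial reductase, went from 12.3 ± 0.851 to 45.7 ± 3.67 at 24 h and from 13.1 ± 0.968 to 54.8 ± 4.09 at 48 h (SD, n = 3). The ratio of SRXN1 to PRDX1 set the repair enzyme against one of the peroxiredoxins it acts on. It was 0.0556 ± 0.00282 in control cells at 24 h and 0.464 ± 0.0180 without cystine, and 0.0713 ± 0.00605 and 0.460 ± 0.0303 at 48 h. These ratios describe unequal change within the same libraries and were not tested.

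The 6 peroxiredoxins together had 1357 ± 24.7 CPM per kilobase in control and 1005 ± 29.2 in deprived cells at 24 h. At 48 h the sums were 1198 ± 69.6 and 1103 ± 60.1, with overlapping sample ranges of 1122 to 1259 and 1035 to 1146. PRDX1 held 43.0% ± 0.823 of the sum in control and 34.4% ± 0.839 in deprived cells at 24 h, and 39.4% ± 0.238 and 39.4% ± 0.364 at 48 h. PRDX5 held 15.5% ± 0.357 and 25.2% ± 0.623 at 24 h, then 17.4% ± 0.469 and 26.3% ± 0.663 at 48 h. The share of PRDX2 went from 13.6% ± 0.722 to 10.2% ± 0.205 at 24 h and from 15.5% ± 0.0712 to 7.39% ± 0.184 at 48 h. At 48 h the family sum of the 2 media thus overlapped while its makeup differed, with more PRDX5 and less PRDX2.

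**Figure D3:**
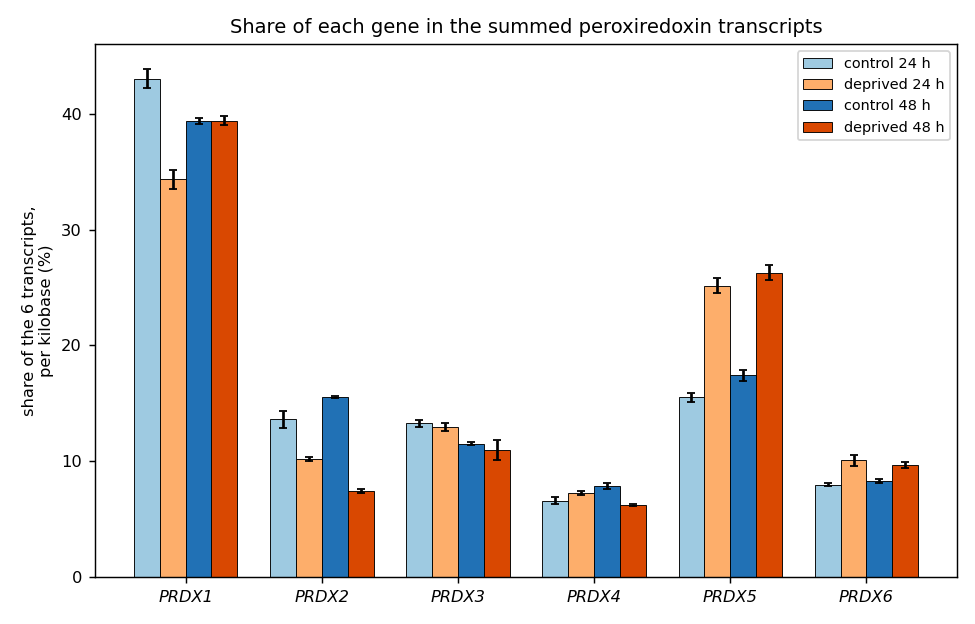
Share of each peroxiredoxin gene in the summed transcripts of the 6, per kilobase of gene length, as mean with SD over 3 samples per group (linear axis from 0). PRDX5 is higher and PRDX2 lower in both deprived groups, while PRDX1 is lower at 24 h only.

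The effect of deprivation at 48 h was compared with that at 24 h by an interaction contrast in the same edgeR fit, in which 35.6% of all genes were called (16.4% with the more positive effect at 48 h and 19.2% with the more negative). Of the 10 genes, 6 had a more positive effect at 48 h and 1 a more negative. TXN had the largest difference, 0.90 ± 0.086 on the log2 scale (adjusted p = 1.38e-07). PRDX1 followed with 0.64 ± 0.079 (adjusted p = 4.09e-06) and TXNRD1 with 0.62 ± 0.064 (adjusted p = 3.73e-07). The others called were TXNRD2 (0.45 ± 0.14), PRDX3 (0.28 ± 0.069), SRXN1 (0.27 ± 0.080) and, in the negative direction, PRDX2 (-0.34 ± 0.085). PRDX4 (-0.16 ± 0.086, adjusted p = 0.151), PRDX5 (0.21 ± 0.091, adjusted p = 0.0833) and PRDX6 (0.21 ± 0.080, adjusted p = 0.0518) did not pass the threshold. PRDX5 and PRDX6 passed with library totals alone (adjusted p = 0.0147 and 0.00561), with DESeq2 (0.0466 and 0.0241) and without deprived 48 h replicate 1 (0.0186 and 0.0049). PRDX5 also passed with no filter (0.0426) and without control 48 h replicate 3 (0.0352), and PRDX6 with RLE scaling (0.0397), upper-quartile scaling (0.0272) and the 5 CPM filter (0.0357). Over 19 alternatives the adjusted p ranged from 0.0147 to 0.212 for PRDX5 and from 0.0049 to 0.134 for PRDX6. For PRDX4 it ranged from 0.0586 to 0.344, so that gene passed under none of them.

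**Figure D4:**
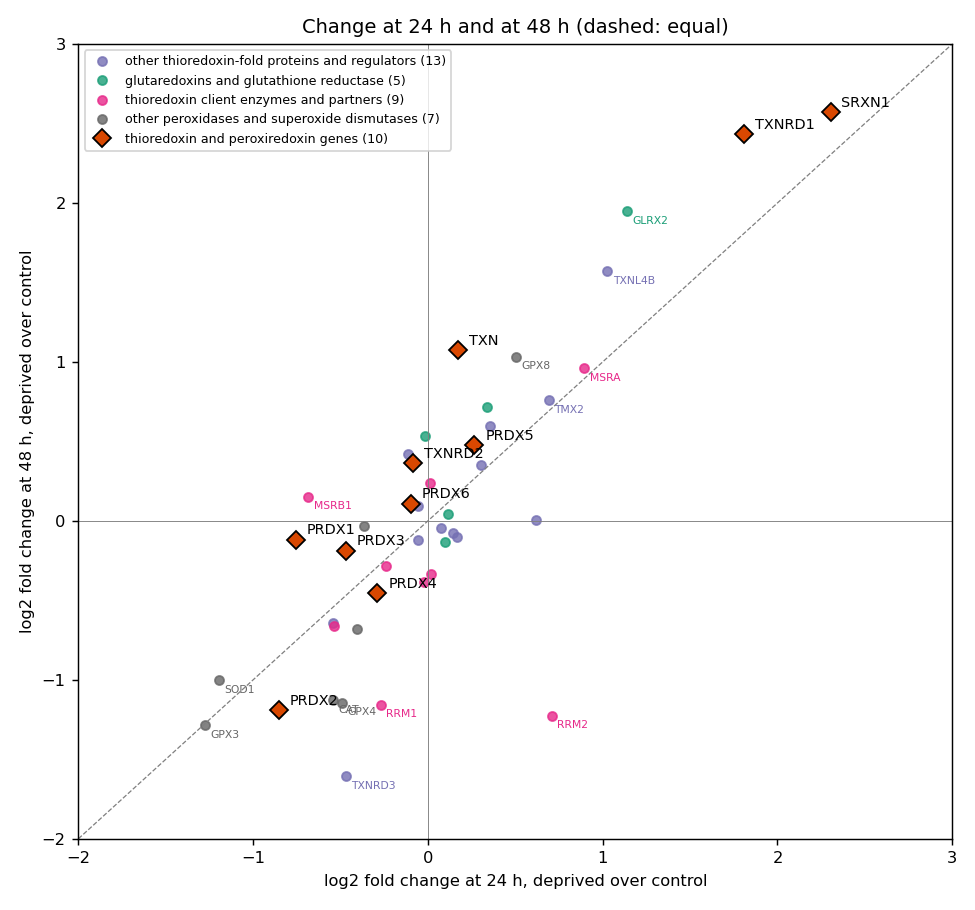
Log2 fold change, deprived over control, at 24 h (x axis) and 48 h (y axis) for the 10 genes (diamonds) and the tested genes of 4 related lists (circles), with equality dashed. TXN and TXNRD1 lie above the line, PRDX2 below it, and RRM2 is positive at 24 h and negative at 48 h.

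The components of these differences were then compared over time within each medium. In control cells 3 of the 10 genes fell from 24 h to 48 h, against 23% of all genes called (12.7% higher and 10.4% lower), and none rose. These were PRDX3, by 0.39 ± 0.048 (adjusted p = 1.54e-05), PRDX1, by 0.31 ± 0.056 (adjusted p = 0.000599), and TXN, by 0.17 ± 0.061 (adjusted p = 0.0495). TXN missed the threshold under RLE scaling (adjusted p = 0.0505) and without control 24 h replicate 2 (0.252) or 3 (0.0538) or control 48 h replicate 1 (0.136) or 2 (0.127), over a range of 0.00754 to 0.252. Samples of the 2 times did not overlap for 4 of the 10 genes in control cells, PRDX6 being the other one, all lower at 48 h. For all genes this share was 38.2% (19.9% higher and 18.3% lower). With library totals alone 5 of the 10 fell, with 1697 genes higher and 2580 lower over the series against 2151 and 1760 in the TMM fit. In deprived cells 6 rose and 1 fell, against 42.5% of all genes called (20.7% higher and 21.8% lower). TXN rose by 0.73 ± 0.060, TXNRD1 by 0.56 ± 0.045, PRDX1 by 0.33 ± 0.056, SRXN1 by 0.32 ± 0.054, TXNRD2 by 0.30 ± 0.097 and PRDX5 by 0.20 ± 0.064, and PRDX2 fell by 0.33 ± 0.061. The calls of TXNRD2 and PRDX5 in deprived cells were lost when 1 library was left out. For TXNRD2 these were deprived 24 h replicate 3 (adjusted p = 0.0839) and deprived 48 h replicates 2 (0.0905) and 3 (0.0642). For PRDX5 they were deprived 24 h replicate 2 (0.0747) and deprived 48 h replicates 2 (0.105) and 3 (0.053). Samples of the 2 times did not overlap for 8 of the 10 genes in deprived cells, 6 higher and 2 lower (PRDX2 and the uncalled PRDX3), against 51.3% of all genes (25.4% higher and 25.9% lower). The smaller difference in PRDX1 between media at 48 h thus came with lower values in control cells and higher values in deprived cells than at 24 h, both past the threshold.

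Other genes around the system were taken as 4 lists. Among 14 other thioredoxin-fold proteins and regulators, 13 were tested, of which 5 rose and 2 fell at 24 h, and 5 rose and 2 fell at 48 h. The median log2 fold change was 0.14 at 24 h and 0.0073 at 48 h, and that of all genes -0.0061 and -0.016. The shares of all genes called, 55.6% at 24 h and 68.3% at 48 h, were no lower than those of the list, so its counts do not set it apart. TXNL4B, a thioredoxin-like protein linked to splicing, rose most at 48 h (1.57 ± 0.10), from 10.4 ± 1.14 to 31.0 ± 3.81 CPM (SD, n = 3). TMX2, a thioredoxin-related membrane protein, rose by 0.76 ± 0.062. TXNRD3, the third reductase gene, best known from testis, fell by 1.61 ± 0.10 at 48 h, from 21.8 ± 0.616 to 7.15 ± 0.854 CPM, and NXN, nucleoredoxin, fell by 0.64 ± 0.067. TXN2, the mitochondrial thioredoxin, was not called at either time (-0.055 ± 0.089 and -0.12 ± 0.089, adjusted p = 0.631 and 0.245). TXNIP, an inhibitor of thioredoxin, was too low to test, with at most 3 estimated counts in any sample.

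Of 5 glutaredoxins and glutathione reductase, the parallel disulfide-reducing system that draws on glutathione, 2 rose and 0 fell at 24 h, and 3 rose and 0 fell at 48 h, with medians of 0.11 and 0.54 against -0.0061 and -0.016 for all genes. Of all genes 55.6% and 68.3% were called, a larger share than in this list at either time. GLRX2, a mitochondrial and nuclear glutaredoxin, rose from 7.83 ± 1.08 to 30.2 ± 1.06 CPM at 48 h (1.95 ± 0.095 on the log2 scale). GLRX3 rose by 0.72 ± 0.064 and GLRX by 0.54 ± 0.071 at 48 h. GSR, the glutathione reductase and functional counterpart of TXNRD1, was 0.11 ± 0.057 at 24 h (adjusted p = 0.102) and 0.043 ± 0.057 at 48 h (adjusted p = 0.522), called at neither time.

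Among 9 clients and partners of thioredoxin, 2 rose and 4 fell at 24 h, and 2 rose and 6 fell at 48 h. Of all genes, 28.8% rose and 26.9% fell at 24 h, and 33.5% rose and 34.9% fell at 48 h. RRM2, the small subunit of ribonucleotide reductase, an enzyme that thioredoxin can recharge, rose by 0.71 ± 0.071 at 24 h and fell by 1.22 ± 0.075 at 48 h. The difference between the times was -1.93 ± 0.10 (adjusted p = 2.67e-11). RRM1, the large subunit, fell by 0.27 ± 0.056 at 24 h and by 1.16 ± 0.058 at 48 h. APEX1, a DNA repair enzyme that thioredoxin reduces, fell by 0.66 ± 0.059 at 48 h. The median log2 fold change of the list was -0.025 at 24 h and -0.33 at 48 h, against -0.0061 and -0.016 for all genes. Against the majority of that list, MSRA, a methionine sulfoxide reductase, rose by 0.96 ± 0.16 and RRM2B by 0.24 ± 0.064 at 48 h.

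Of 9 other peroxidases and superoxide dismutases 7 were tested, since GPX2 and GPX7 had at most 5 and 2 estimated counts. At 24 h 1 rose and 6 fell, and at 48 h 1 rose and 5 fell, with a median log2 fold change of -0.49 at 24 h and, at 48 h, the value of SOD1. The falls at both times include GPX3, a low gene with at most 22 estimated counts in any sample. Its adjusted p by edgeR's test was 0.0355 at 24 h and 0.0234 at 48 h. Of all genes, 26.9% fell at 24 h and 34.9% at 48 h (55.6% and 68.3% called in either direction), with medians of -0.0061 and -0.016. CAT, catalase, fell by 1.13 ± 0.058, GPX4, the lipid peroxide reductase, by 1.14 ± 0.064, and SOD1, which makes hydrogen peroxide from superoxide, by 1.00 ± 0.057 at 48 h. SOD1 had already fallen by 1.20 ± 0.057 at 24 h. GPX8, a peroxidase of the endoplasmic reticulum, was the exception, with a rise of 0.51 ± 0.058 at 24 h and 1.03 ± 0.057 at 48 h.

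Genes whose profile over the 12 samples was closest to each of the 10 were found by the root mean square difference of centred log2 CPM, among 11055 other genes with a plain symbol that averaged 5 CPM or more. The 12 samples fall into 4 groups, and the measure is a description without a test. Closest to TXNRD1 were MOCOS, JDP2 and GPAT3, at 0.0513 to 0.112 log2 units. Closest to SRXN1 were PCK2, GTPBP2 and FGF19 (0.116 to 0.127), to TXN ANKRD42, BCDIN3D and MUL1 (0.0769 to 0.0844), and to TXNRD2 MPLKIP, PSMB1 and SHMT2 (0.0642 to 0.0732). Among the peroxiredoxins, PRDX1 was closest to HSP90AB1, CHKA and DSC2 (0.0763 to 0.0871), PRDX2 to SCPEP1, TKT and FBXO2 (0.0581 to 0.0655), and PRDX3 to EXOC8, ATP5F1A and LIMS1 (0.0604 to 0.0637). PRDX4 was closest to LASP1, GMPR2 and ERGIC3 (0.0332 to 0.0533), PRDX5 to PFKFB2, ATG7 and ARF1 (0.0503 to 0.0513) and PRDX6 to KIF13A, YTHDF2 and NRBP1 (0.0356 to 0.0404). The SD of a gene's own log2 CPM over the samples ran from 0.0811 for PRDX6 to 1.28 for SRXN1. A distance is therefore not comparable between genes. Pearson r with the genes named was 0.881 to 0.889 for PRDX6 and 0.995 to 0.996 for SRXN1. None of the 10 genes could appear in these sets by the way they were drawn.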

How the data were processed

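HCT116 RNA-seq libraries of 12 samples were analysed, grouped by the titles in the labels. The deposited values are estimated counts, not normalized, in 1 column per sample, and 14.2% of them are not whole. Per the submitters' processing notes, fastp, HISAT, RSEM and the build GRCh38 were used, without versions, roles or order; annotation and strandedness were not given in the sources used here. Estimates of this kind split reads between near-identical copies. Of 60987 rows, 316 had no gene name (0.748% to 1.65% of counts) and were left out.

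Estimated counts were rounded, genes passing filterByExpr (minimum count 10, minimum total 15) were kept, and the 4 group means were fitted over all 12 samples with TMM factors (edgeR 4.0.16, glmQLFit and glmQLFTest, R 4.3.3), with no replicate block. The 5 contrasts were tested with Benjamini-Hochberg adjustment over 16994 genes. The standard error is the log2 fold change divided by the root of F. Replicates differed by more than sampling noise (chi-square per degree of freedom 2.99 to 8.14). The steps were tested on simulated data in which few genes changed. Most genes were called in the real data at each time, so that test does not cover the scaling under such wide change. DESeq2 1.42.0 and other alternatives are given at the end. All 10 genes are described in each comparison. From each list of related genes, those named are at most the 4 with the smallest adjusted p at 48 h and those moving against the majority, and TXN2, TXNIP, GSR and some 24 h values were added after their values were seen. The 10 genes and the lists were chosen with earlier results of these data known. Gene coordinates come from GENCODE release 29, matched by identifier and not stated to be the authors' annotation.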

Additional observations from a re-analysis of the deposited data

Results flagged for a closer look

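The effect of deprivation differed between 24 h and 48 h for 7 of the 10 genes, by the interaction contrast of edgeR's fit (35.6% of all genes did). As the log2 effect at 48 h minus that at 24 h, the difference was 0.90 for TXN, 0.64 for PRDX1, 0.62 for TXNRD1, 0.45 for TXNRD2, 0.28 for PRDX3, 0.27 for SRXN1 and -0.34 for PRDX2. For TXN, PRDX1 and PRDX3 the 2 control groups also differed from each other past the threshold, by -0.17, -0.31 and -0.39 from 24 h to 48 h. For TXNRD1, TXNRD2, SRXN1 and PRDX2 the control groups differed by -0.064, -0.15, 0.051 and 0.01, none of which passed it.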

How the results depend on the processing

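The 5 counts of called genes were recomputed under RLE and upper-quartile scaling, library totals alone, DESeq2, no filter, a filter of 5 CPM, a replicate block, the compared groups alone (not run for the interaction, which needs all groups) and without each sample of the compared groups. They stayed within 1.5 times, except for control cells at 48 h against 24 h, where library totals alone gave 5 and not 3. Without 1 replicate the counts ranged from 7 to 8 (deprivation at 24 h), 8 to 9 (at 48 h), 7 to 9 (interaction), 2 to 3 (control cells) and 5 to 8 (deprived cells). Of 750 recomputed values of single genes, 698 kept direction and side of the threshold, 17 lost a call, 28 gained one and 7 changed sign, all of the last among uncalled genes of control cells over time. These were SRXN1 without control 48 h replicate 2 (-0.020), PRDX2 with library totals alone (-0.037) and without control 24 h replicate 2 (-0.033) or control 48 h replicate 2 (-0.0016) or 3 (-0.024), and PRDX5 without control 24 h replicate 3 (0.016) or control 48 h replicate 1 (0.053). Without 1 replicate they ranged from -0.020 to 0.096 (SRXN1), -0.033 to 0.059 (PRDX2) and -0.068 to 0.053 (PRDX5). The cause was not tested. Same-numbered samples of the 2 media did not deviate together throughout (correlations of -0.0723 to 0.143 at 24 h and -0.026 to 0.315 at 48 h), and 3 of 6 and 4 of 6 samples lay closest to their own number, so the numbers were not taken as pairs. With the replicate block 8 of the 10 genes were called at 24 h and 10 at 48 h, with PRDX1 (-0.12, adjusted p = 0.0379) and PRDX6 (0.11, adjusted p = 0.0418) added by edgeR's test, PRDX5 (adjusted p = 0.048) and PRDX6 (0.0169) gained the difference between times, and 9631 and 11734 of all genes against 9451 and 11615.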
